A study of Mus musculus with 9 samples.

Results

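Serine, glycine, folate-bound one-carbon units and proline are made from glucose and glutamate by a short set of enzymes, and 10 genes that encode such enzymes are described here in cultured heart cells. Phgdh, Psat1 and Psph encode the serine synthesis enzymes, Shmt1 and Shmt2 the serine hydroxymethyltransferases of the cytosol and the mitochondrion, Mthfd2, Mthfd1l and Aldh1l2 the mitochondrial folate enzymes, and Aldh18a1 and Pycr1 enzymes of proline synthesis. Each was taken from the count table by its gene name, and all 10 were found once among 55401 genes.

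The cells were primary ventricular myocytes from 1-day-old wild-type C57BL/6J mice (neonatal mouse ventricular myocytes, NMVMs), grown in DMEM with 10% FBS, and poly(A) RNA was sequenced from 9 libraries in 3 groups of 3. Control cultures stayed in complete medium in normal oxygen. The hypoxia cultures were moved to DMEM with neither glucose nor serum and held for 6 hours in a sealed chamber that removes oxygen, and the hypoxia + rSRGN cultures were handled alike with recombinant serglycin (rSRGN), a proteoglycan core protein, in the medium. Low oxygen, loss of glucose and loss of serum therefore cannot be told apart in either comparison with control, while the rSRGN comparison differed, as labelled, in the added protein. Whether the libraries of a group came from separate cultures or litters was not labelled, so the p-values measure the spread between these libraries, which may be technical.

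In mammalian cells, serine synthesis branches from glycolysis at 3-phosphoglycerate: Phgdh oxidises it, Psat1 transfers an amino group from glutamate, and Psph removes the phosphate. Serine hydroxymethyltransferases then move a carbon from serine to tetrahydrofolate, which leaves glycine, and the mitochondrial folate enzymes carry that carbon to formate for purine and thymidylate synthesis or to carbon dioxide. Proline is built from glutamate by Aldh18a1 and a reductase such as Pycr1. Several of these genes are known targets of ATF4, a transcription factor made when amino acids are short or mitochondria are stressed. Heart muscle cells draw mainly on fatty acids after birth and more on glucose, the source of the carbon in newly made serine, before it.

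Fragments assigned to genes came to between 21669017 and 22781557 per control library, 16583985 and 18148474 per hypoxia library and 16640239 and 20826701 per rSRGN library. The labelled cell type was checked with 10 cardiomyocyte marker genes, which were detected in every library but moved with the groups. Their summed level was 42833 to 53070 CPM (counts scaled to the library total with TMM factors) in control, 3711 to 5716 in hypoxia and 7321 to 7856 in hypoxia + rSRGN. All 10 were called lower in hypoxia than in control, where 25.1% of all tested genes were called lower and 26.4% higher. In hypoxia + rSRGN, 9 were called higher than in hypoxia (3.13% of all tested genes were called in either direction between these groups). Fibroblast markers, 9 in all, summed to 8818 to 10414, 17602 to 20369 and 19373 to 19980 CPM in the same order, with 7 of 9 called higher in hypoxia and 1, Tcf21, called lower with rSRGN than in hypoxia (log2 -0.76, edgeR adjusted p = 3.85e-05). Endothelial markers, 7 in all, summed to 72.1 to 102, 49.5 to 64.2 and 51.4 to 66.4 CPM, with 5 called lower in hypoxia and 1, Kdr, called higher with rSRGN than in hypoxia (log2 0.93, edgeR adjusted p = 0.00448). Macrophage markers, 8 in all, summed to 226 to 240.4, 24.5 to 27.9 and 28.8 to 34.3 CPM, with 7 called lower in hypoxia and 0 called with rSRGN against hypoxia, and Adgre1, C1qa or Ptprc was at 0 in some hypoxic libraries. Tcf21 and Kdr were named after their values were seen. In these bulk libraries fewer cells of a type and less RNA per cell cannot be told apart, and the part of the cell mixture in the results on the 10 genes was not tested.

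The 10 genes together made up a larger share of the hypoxic libraries than of the control libraries. Their summed level was 639 to 701 CPM in the control libraries, 1130 to 1221 in hypoxia and 1128 to 1164 in hypoxia + rSRGN. The hypoxic groups lay above all control libraries and overlapped each other.

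A gene was called when the quasi-likelihood test of edgeR gave a Benjamini-Hochberg adjusted p below 0.05 over the 16762 genes tested and the fold change was at least 1.5. Against control, hypoxia raised 6 of the 10 genes (Phgdh, Psph, Shmt2, Mthfd2, Aldh18a1 and Pycr1), where 26.4% of all tested genes were called higher. None was called lower, where 25.1% of all genes were. Without the fold limit, 9 of 10 were higher and 1 was lower, where 36.8% and 34.1% of all genes were. The median log2 fold change was 0.99 over the 10 genes and 0.05 over all tested genes. The control and hypoxia ranges did not overlap for any of the 10 genes, and 73.0% of all tested genes were likewise separate.

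**Figure D1:**
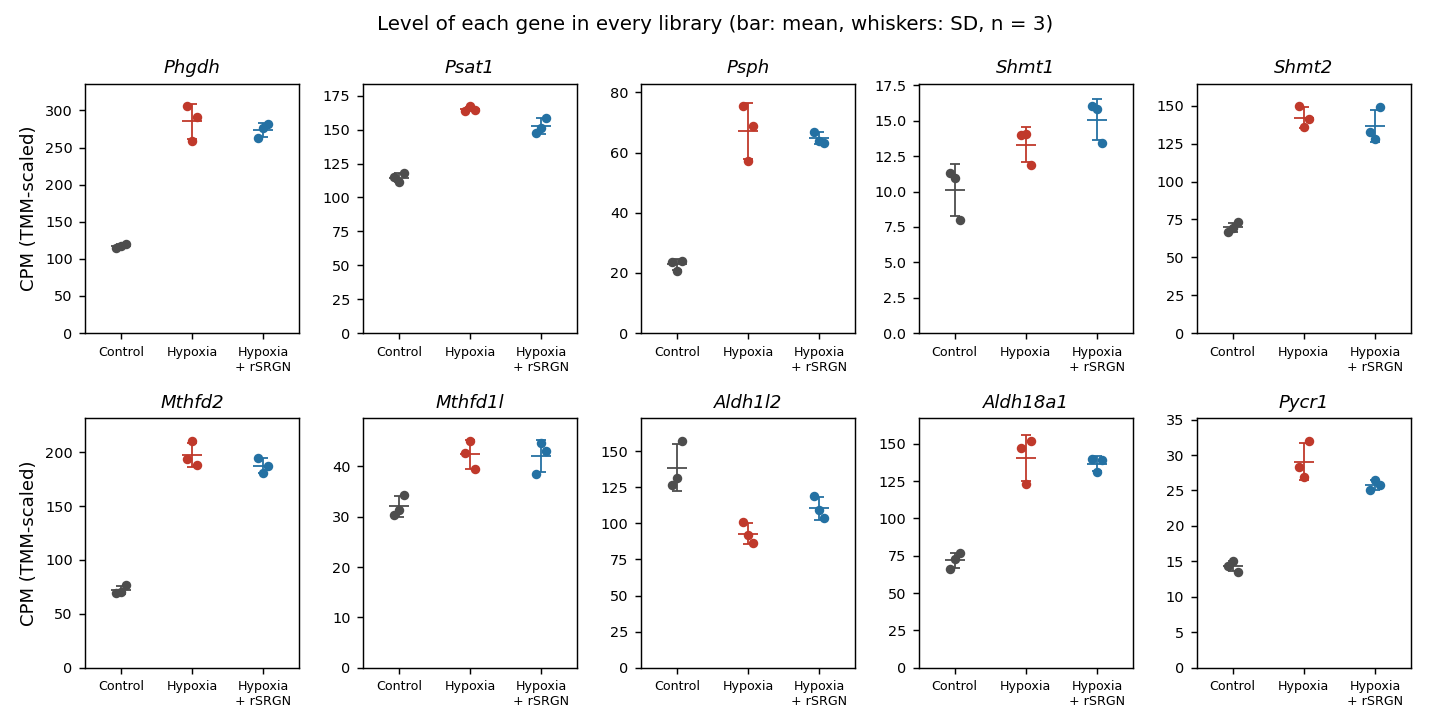
Each panel shows 1 gene, with the TMM-scaled CPM on a linear vertical axis that starts at 0 and the 3 groups along the horizontal axis; points are libraries, the bar is the mean and the whiskers the SD (n = 3). In 9 panels the control libraries lie lowest, and in the Aldh1l2 panel they lie highest, at 127 to 157 CPM.

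To show the DNA in front of genes that rose, stretches of sequence just before the start site are given for 3 of the 6 called genes, from RefSeq (GRCm38.p6): Pycr1, the only one of the 9 genes searched with TGATGNAA, Aldh18a1, the only one of them with CACGTG and the ACGTG inside it, and Phgdh, the most abundant of the 10 genes per kilobase of exon, which holds none of the motifs searched for. Psph, which holds ACGTG alone, is not shown. Each runs 5′ to 3′ towards the gene, on the minus strand, and bases that the count table places inside the gene are left out. Capitals mark the motif matches. The stretches lie at chr11:120643770-120643948 (Pycr1), chr19:40588464-40588663 (Aldh18a1) and chr3:98339991-98340169 (Phgdh).
Pycr1: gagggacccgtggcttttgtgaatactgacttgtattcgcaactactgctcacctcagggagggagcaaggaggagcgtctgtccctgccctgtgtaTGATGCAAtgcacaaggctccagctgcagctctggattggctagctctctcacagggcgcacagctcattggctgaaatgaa
Aldh18a1: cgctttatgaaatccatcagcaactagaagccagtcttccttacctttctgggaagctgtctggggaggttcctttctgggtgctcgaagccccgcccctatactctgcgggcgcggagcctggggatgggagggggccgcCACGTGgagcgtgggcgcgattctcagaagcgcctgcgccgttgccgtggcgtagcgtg
Phgdh: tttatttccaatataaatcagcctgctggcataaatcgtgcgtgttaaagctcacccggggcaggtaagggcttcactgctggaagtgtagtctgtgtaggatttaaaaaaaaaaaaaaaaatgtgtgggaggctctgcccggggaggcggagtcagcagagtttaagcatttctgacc

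Windows from 250 bases before to 50 bases after the start site were searched on both strands for TGATGNAA, the core bound by ATF4 with C/EBP proteins, ACGTG, a core of the hypoxia response element, and CACGTG, an E-box that contains ACGTG. RefSeq held 10 such windows for 9 of the genes, with 2 for Psat1, and Aldh1l2 was not matched. TGATGNAA was found in 1 of the 10 windows, that of Pycr1, where TGATGCAA starts 103 bases before the start site, and in 3.97% of the 32851 windows of all genes. Asns, the asparagine synthetase gene, held TGATGAAA 23 bases and ACGTG, on the other strand, 110 bases before its start. ACGTG was found in 4 windows (Psph, Mthfd1l, Psat1 and Aldh18a1) and in 19.6% of all windows, and CACGTG in that of Aldh18a1 and in 7.15% of all windows. A match is a run of letters and not a shown binding site, and a gene without one lacks these letters in this window only. Other letter forms of these motifs were not searched for.

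The genes for the 2 outer steps of serine synthesis rose more than the gene for the middle step. Phgdh (chr3:98313170-98339990 in GRCm38, minus strand, ENSMUSG00000053398.11), the first enzyme of the pathway, measured 115, 118 and 120.0 CPM in the control libraries. It measured 306, 259.5 and 291 CPM in hypoxia and 263, 276 and 281 CPM in hypoxia + rSRGN. Every hypoxic library thus held over 2 times the Phgdh of any control library, and the hypoxic groups overlapped each other. The rise under hypoxia was 2.43-fold (log2 1.28 ± 0.07 SE, edgeR adjusted p = 6.86e-13).

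Psat1 (chr19:15904678-15947337, minus strand, ENSMUSG00000024640.9), the aminotransferase, stood at nearly the same CPM as Phgdh in control, with 115, 111 and 118. It reached 164, 167 and 165 CPM in hypoxia and 148, 152 and 159 in hypoxia + rSRGN. The 3 groups did not overlap, yet Psat1 stayed under the fold limit, at 1.44-fold over control (log2 0.53 ± 0.07 SE, edgeR adjusted p = 3.61e-07). Scaled by library size alone, it passed that limit, at a log2 fold change of 0.60.

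Psph (chr5:129765558-129787449, minus strand, ENSMUSG00000029446.14), the phosphatase of the last step, had the largest rise of the 10 genes. Its libraries measured 23.8, 20.7 and 24.01 CPM in control, 75.4, 57.0 and 68.7 in hypoxia, and 67.0, 64.0 and 63.2 in hypoxia + rSRGN. The second hypoxia library was the lowest of its group for Psph, as it was for Phgdh, Shmt2, Aldh18a1 and Pycr1, and still lay far above control. The rise was 2.94-fold (log2 1.56 ± 0.10 SE, edgeR adjusted p = 3.89e-12), and between 1.46 and 1.66 on the log2 scale when any 1 library was left out. Of the 4329 exon bases of Psph, 10.4% lie over Cct6a on the other strand, where counting without strand cannot assign fragments to 1 gene.

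Ratios within a library do not depend on how libraries are scaled. Per kilobase of exon, Phgdh was 1.71, 1.81 and 1.74 times Psat1 in the control libraries and 3.19, 2.65 and 3.02 times Psat1 in hypoxia. The log2 ratio was higher by 0.75 under hypoxia, and that of Psph to Psat1 by 1.02. In both ratios the groups did not overlap, and the exact two-sided permutation p was 0.1, the smallest that 3 against 3 libraries allow (0.18 when adjusted over all 18 ratio tests). These pairs of genes, and those below, were chosen after the counts had been seen.

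A processed pseudogene of Phgdh, Phgdh-ps1, was also counted, and was picked out after its values were seen. It lies at chr7:83710966-83711719 on the minus strand, within the span of Il16, and is identical to the Phgdh transcript at 728 of its 754 bases (96.6%). It held 0, 0 and 2 counts in the control libraries, 76, 80 and 66 in hypoxia and 69, 112 and 78 in hypoxia + rSRGN. The summed hypoxia counts were 142 times those of control per total count, with an exact 95% interval of 39.0 to 1183 for counting error only. These counts equalled 1.31% to 1.78% of those of Phgdh in the hypoxia libraries and 0%, 0% and 0.0805% in the control libraries, and which of the 2 loci the fragments came from is uncertain.

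Of the serine hydroxymethyltransferases, the mitochondrial Shmt2 was called higher under hypoxia and the cytosolic Shmt1 was not. Shmt2 (chr10:127517123-127522444, minus strand, ENSMUSG00000025403.5) measured 66.8, 69.2 and 73.0 CPM in control, 149.7, 136 and 141 in hypoxia, and 133, 128 and 149 in hypoxia + rSRGN. Its level about doubled in each hypoxic library, by 2.04-fold in the fit (log2 1.03 ± 0.08 SE, edgeR adjusted p = 5.65e-11).

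Shmt1 (chr11:60788104-60811718, minus strand, ENSMUSG00000020534.14) was the least abundant of the 10 genes, with 11.3, 10.97 and 7.97 CPM in control, 14.02, 14.04 and 11.9 in hypoxia, and 16.03, 15.8 and 13.4 in hypoxia + rSRGN. The third library was the lowest in each group, and the control and hypoxia ranges stayed apart by a narrow gap. Hypoxia was 1.32-fold over control (log2 0.40 ± 0.14 SE, edgeR adjusted p = 0.0148), under the fold limit. Without control replicate 3, the lowest control library, the log2 fold change was 0.25 (edgeR adjusted p = 0.128), so that Shmt1 was then no longer among the genes higher at any fold. Over the 18 alternatives its adjusted p ran from 0.00582 to 0.128. Hypoxia + rSRGN was 1.49-fold over control (log2 0.58 ± 0.14 SE, edgeR adjusted p = 0.000845), just under it. It passed without control replicate 1 (0.66), control replicate 2 (0.63) or hypoxia + rSRGN replicate 3 (0.65), and was 0.43 without control replicate 3. The log2 ratio of Shmt2 to Shmt1 was higher by 0.62 in hypoxia than in control (exact permutation p = 0.1, no overlap). In hypoxia + rSRGN it was higher by 0.38 than in control, with overlapping libraries (exact permutation p = 0.3).

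Within the mitochondrial folate branch Mthfd2 rose, Mthfd1l was higher by less than the fold limit, and Aldh1l2 was lower. Mthfd2 (chr6:83305691-83325908, minus strand, ENSMUSG00000005667.8), the dehydrogenase and cyclohydrolase known from embryonic and proliferating cells, measured 69.2, 70.5 and 76.8 CPM in control and 194, 210.3 and 189 in hypoxia. In hypoxia + rSRGN it measured 194, 181 and 187 CPM. Both hypoxic groups lay well above control and overlapped each other. The rise was 2.74-fold (log2 1.45 ± 0.07 SE, edgeR adjusted p = 7.46e-14), the smallest p of the 10 genes.

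Mthfd1l (chr10:3973118-4167081, plus strand, ENSMUSG00000040675.17), the mitochondrial enzyme that releases formate, is the next step after Mthfd2. Its libraries measured 30.3, 31.4 and 34.4 CPM in control, 42.7, 45.01 and 39.4 in hypoxia, and 38.5, 44.6 and 43.1 in hypoxia + rSRGN. The control libraries were lowest, by less than for Mthfd2, and the fold of 1.32 (log2 0.40 ± 0.09 SE, edgeR adjusted p = 0.000532) was under the limit.

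Aldh1l2 (chr10:83487450-83534140, minus strand, ENSMUSG00000020256.14), which oxidises the same formyl-folate to carbon dioxide with production of NADPH, was the only one of the 10 genes below control. It measured 127, 132 and 157 CPM in control, 101, 91.6 and 86.1 in hypoxia, and 119, 109 and 103 in hypoxia + rSRGN. No group overlapped another, with hypoxia + rSRGN in between. The log2 fold change under hypoxia was -0.58 ± 0.09 SE (edgeR adjusted p = 3.91e-06), and the fold of 1.49 towards lower fell just short of the limit. It passed without control replicate 1 (-0.66), control replicate 2 (-0.63), hypoxia replicate 1 (-0.64) or hypoxia + rSRGN replicate 3 (-0.59). The weakest value for Aldh1l2 with any 1 library left out was -0.49. Of its exon bases, 14.1% lie over D10Wsu102e on the other strand.

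Mthfd2 and Aldh1l2 thus stood close per kilobase of exon in control and apart in hypoxia. The ratio of Mthfd2 to Aldh1l2 was 1.17, 1.15 and 1.05 in the control libraries, 4.15, 4.94 and 4.71 in hypoxia, and 3.52, 3.57 and 3.90 in hypoxia + rSRGN. Hypoxia exceeded control 4.08-fold, and no group overlapped another (exact permutation p = 0.1 for each pair of groups, the smallest possible). The log2 ratio of Mthfd2 to Mthfd1l was higher by 1.05 in hypoxia than in control, also with no overlap.

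**Figure D2:**
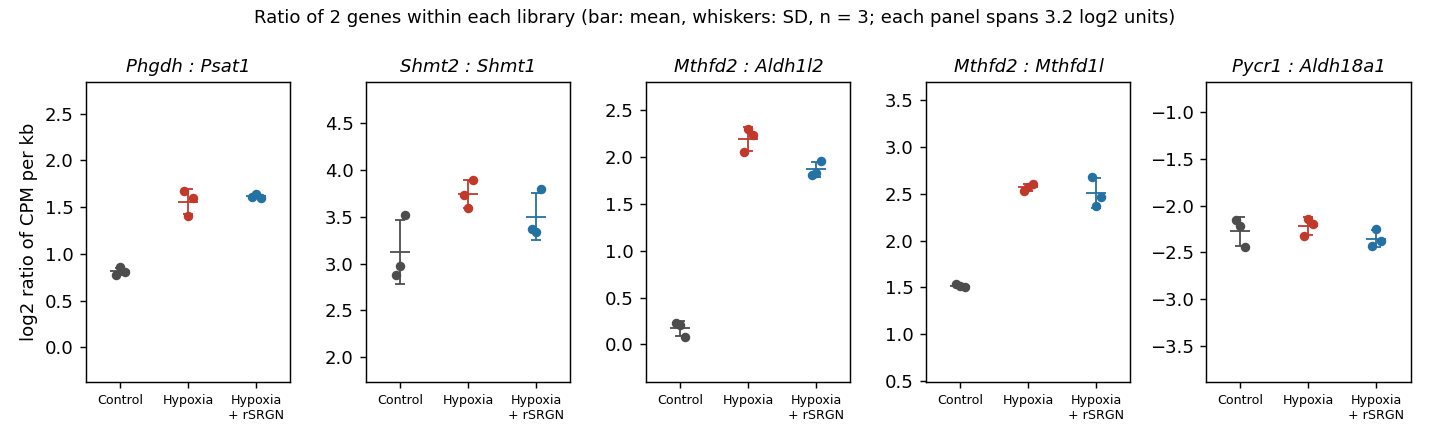
Each panel shows, for 1 pair of genes, the log2 ratio of their CPM per kilobase on the vertical axis and the 3 groups on the horizontal axis; points are libraries, the bar is the mean and the whiskers the SD (n = 3), and all panels span the same number of log2 units. The ratio of Mthfd2 to Aldh1l2 moves furthest, from a control mean of 0.17 to 2.20 in hypoxia and 1.87 in hypoxia + rSRGN, and that of Pycr1 to Aldh18a1 overlaps in all groups.

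Both proline synthesis genes rose under hypoxia. Aldh18a1 (chr19:40550257-40588463, minus strand, ENSMUSG00000025007.13), the enzyme that commits glutamate to proline and ornithine, measured 66.1, 72.7 and 76.6 CPM in control, 147, 123 and 152 in hypoxia, and 139.7, 131 and 139 in hypoxia + rSRGN. Pycr1 (chr11:120635712-120643769, minus strand, ENSMUSG00000025140.15), a mitochondrial reductase of the last step, measured 14.4, 15.1 and 13.6 CPM in control, 28.4, 26.9 and 32.0 in hypoxia, and 25.1, 26.5 and 25.8 in hypoxia + rSRGN. Both hypoxic groups lay above control for each gene. Aldh18a1 rose 1.96-fold (log2 0.97 ± 0.08 SE, edgeR adjusted p = 7.54e-10) and Pycr1 rose 2.03-fold (log2 1.02 ± 0.10 SE, edgeR adjusted p = 7.91e-09). The log2 ratio of Pycr1 to Aldh18a1 was -2.27 ± 0.15 (SD, n = 3) in control and -2.22 ± 0.09 in hypoxia, with overlapping libraries (exact permutation p = 0.6).

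Compared per kilobase of exon, Phgdh was the most abundant of the 10 genes in each group, at 47.3 ± 0.99 CPM per kb (SD, n = 3) in control, 115 ± 9.47 in hypoxia and 110.04 ± 3.77 in hypoxia + rSRGN. In control the order went on with Psat1 (26.9), Shmt2 (22.4), Mthfd2 (20.7), Aldh1l2 (18.4) and Aldh18a1 (17.6), and of these the neighbours from Shmt2 to Aldh18a1 overlapped. Mthfd1l (7.22), Psph (5.27), Pycr1 (3.65) and Shmt1 (2.60) followed without overlap. In hypoxia Mthfd2 stood second (56.7), before Shmt2 (45.7), Psat1 (38.8) and Aldh18a1 (34.5). Aldh1l2 stood at 12.4, below Psph at 15.5, with overlapping libraries, and above Mthfd1l (9.55), Pycr1 (7.39) and Shmt1 (3.43). The order in hypoxia + rSRGN was that of hypoxia. The order depends on the division by length: by CPM alone Aldh1l2 ranked 1 in control (138 CPM) and Phgdh 2 (118 CPM), while Phgdh stayed first in both hypoxic groups and Psat1, Shmt2, Psph and Aldh1l2 changed places there.

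None of the 10 genes was called between hypoxia + rSRGN and hypoxia, where 3.13% of all tested genes were. At any fold, edgeR passed 0 of 10 at an adjusted p below 0.05, where 16.6% of all tested genes passed. At an unadjusted p below 0.05, edgeR and DESeq2 each passed 1 gene, Aldh1l2, where edgeR passed 29.4% of all tested genes. The median log2 difference was -0.05 over the 10 genes and -0.03 over all tested genes. The ranges of the groups were apart for 3 genes, Psat1, Aldh1l2 and Pycr1, and for 32.0% of all tested genes.

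Among these 3 genes, Aldh1l2 was 1.19-fold higher with rSRGN (log2 0.25, 95% interval 0.07 to 0.43, edgeR adjusted p = 0.0524). Over the 18 alternatives with adjusted p-values, that value ran from 0.0176 to 0.232 and was below 0.05 in 10 of them, and the 1.5-fold limit lies outside the interval. Among the 18, the setting with no fold limit repeats the adjusted p of the main fit. Psat1 had a log2 difference of -0.11 (interval -0.25 to 0.03, edgeR adjusted p = 0.273) and Pycr1 one of -0.17 (interval -0.38 to 0.03, edgeR adjusted p = 0.255). The ratio of Mthfd2 to Aldh1l2 was lower by 0.33 on the log2 scale with rSRGN, with no overlap (exact permutation p = 0.1).

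The 6 genes that rose under hypoxia kept narrow intervals in the rSRGN comparison. The log2 difference was -0.06 for Phgdh (95% interval -0.21 to 0.09), -0.05 for Psph (-0.25 to 0.14) and -0.06 for Shmt2 (-0.21 to 0.10). It was -0.08 for Mthfd2 (-0.22 to 0.07) and -0.04 for Aldh18a1 (-0.21 to 0.13). A 1.5-fold difference in either direction lies outside each of these intervals. For Shmt1 the interval was wider, -0.11 to 0.46 around 0.18, and for Mthfd1l it was -0.20 to 0.18 around -0.01.

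Against control, hypoxia + rSRGN raised 6 of the 10 genes, where 24.1% of all tested genes were called higher, and lowered none, where 24.7% were called lower. They were Psph (log2 1.504), Mthfd2 (1.38), Phgdh (1.22), Shmt2 (0.97), Aldh18a1 (0.93) and Pycr1 (0.85). Without the fold limit 9 were higher and 1 lower, where 34.4% and 34.3% of all genes were, and Aldh1l2, the lower one, stood at -0.33 (edgeR adjusted p = 0.00205). The ranges of the 2 groups were apart for all 10 genes and for 73.3% of all tested genes. The median was 0.89 over the 10 genes and 0.01 over all tested genes. This comparison and that of hypoxia with control share the control libraries, so their likeness is no separate evidence.

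**Figure D3:**
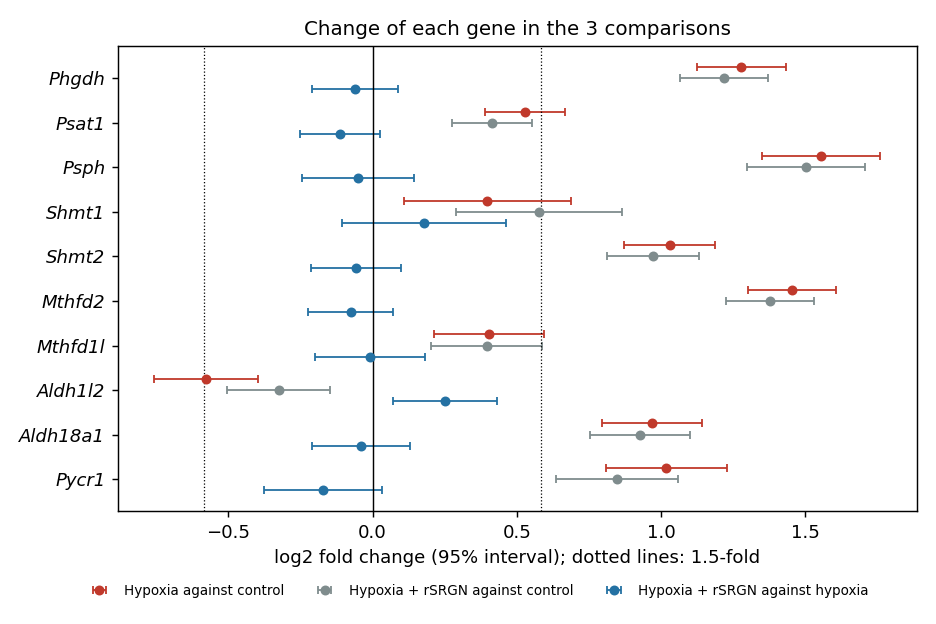
The horizontal axis gives the log2 fold change with its 95% interval from edgeR and the vertical axis lists the 10 genes; colours mark the 3 comparisons and dotted lines the 1.5-fold limit. Red and grey points (each hypoxic group against control) lie right of 0 for 9 genes and left of it for Aldh1l2, and blue points (hypoxia + rSRGN against hypoxia) lie between -0.17 and 0.25.

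The genes around this pathway were taken from 7 lists. Of their 51 tested genes, 18 (35.3%) were called higher under hypoxia and 10 (19.6%) lower, where 26.4% and 25.1% of all tested genes were. Without the list around ATF4 the counts were 11 (25.6%) and 10 (23.3%) of 43, near those shares, so the single lists are given as descriptions. Of 7 genes for cytosolic folate enzymes and folate entry, hypoxia raised 3 and lowered 0 (median log2 fold change 0.50). The largest rise was that of Tyms, thymidylate synthase, from 20.6 ± 1.00 to 48.4 ± 3.65 CPM (mean ± SD, n = 3, log2 1.23 ± 0.09 SE, edgeR adjusted p = 6.42e-11). Aldh1l1, which oxidises formyl-folate in the cytosol, and Ggh, which trims the glutamate tail of folates, both named here after their values were seen, were the others that rose, by 0.74 and 0.96 on the log2 scale, and Aldh1l1 lost its call without control replicate 1 (0.57). Mthfd1, the cytosolic enzyme that combines 3 folate activities, had a log2 fold change of 0.08 (edgeR adjusted p = 0.394).

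Of 10 other genes for mitochondrial folate and glycine, 9 were tested, 4 rose and 1 fell (median 0.30), and Dmgdh was too low to test. At an adjusted p below 0.05 and any fold, 4 were higher and 2 lower. Mthfd2l, named after its values were seen, measured 11.2 ± 0.56 CPM in control and 8.15 ± 2.21 in hypoxia (mean ± SD, n = 3). Gldc, the glycine decarboxylase of the glycine cleavage system, measured 2.43, 3.39 and 2.22 CPM in control and 7.04, 7.80 and 8.57 in hypoxia, a rise of 2.90-fold (edgeR adjusted p = 8.29e-07). Sfxn1, a mitochondrial serine carrier, rose by 1.04 on the log2 scale, and Amt and Gcsh, which encode the aminomethyltransferase and carrier protein of the same system, by 0.66 and 0.67. Dld, its dehydrogenase, which is shared with pyruvate dehydrogenase and other complexes, fell by 1.24 on the log2 scale (edgeR adjusted p = 1.57e-12). Sfxn1, Amt and Gcsh were named after their values were seen, and Amt lost its call without hypoxia replicate 1 (0.55).

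Of 7 other proline, ornithine and glutamate genes, edgeR called 0 higher and 3 lower (median -0.09), and 2 more, Glud1 (log2 0.47) and Oat (0.18), were higher at an adjusted p below 0.05 without reaching 1.5-fold, both named after their values were seen. Prodh, the first enzyme of proline breakdown, went from 5.89, 6.64 and 6.28 CPM in control to 3.81, 2.95 and 3.42 in hypoxia, and fell by 0.88 on the log2 scale (edgeR adjusted p = 0.000779). Aldh4a1, the second enzyme of proline breakdown, fell by 0.70 and Glul, glutamine synthetase, by 0.82, both named after their values were seen. The genes of both steps of proline breakdown thus fell while Aldh18a1 and Pycr1 rose, and Pycrl, another reductase, stood at -0.04 (edgeR adjusted p = 0.808).

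Of 7 genes of the methionine cycle and transsulfuration, 3 rose and 3 fell (median -0.40). Cth, which makes cysteine from cystathionine, had the largest rise of these lists at 4.61-fold, from 4.13, 4.06 and 4.40 CPM in control to 19.1, 19.9 and 19.1 in hypoxia (edgeR adjusted p = 2.76e-13). Cbs, which joins serine to homocysteine in the step before, rose by 1.13 on the log2 scale, on 10 to 18 counts per control library and 16 to 30 per hypoxia library (edgeR adjusted p = 0.0238), and Ahcy, which releases homocysteine, rose by 0.89. Mtr, methionine synthase, which takes its carbon from methyl-folate, fell by 0.91 (edgeR adjusted p = 1.64e-08), its reductase Mtrr by 0.73 and Mat2b by 0.76. Cbs, Ahcy, Mtrr and Mat2b were named after their values were seen. Cbs lost its call without control replicate 1 (0.95), control replicate 2 (0.95), hypoxia replicate 1 (0.94) or hypoxia replicate 3 (1.11).

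Of 7 genes for the use of serine, 1 rose and 2 fell (median 0.09). Sdsl, a serine dehydratase-like gene, fell by 1.73 on the log2 scale (edgeR adjusted p = 3.09e-08) and Srr, serine racemase, named after its values were seen, by 0.80. Sds, serine dehydratase, rose by 1.19 (edgeR adjusted p = 0.0277) on 6 to 19 counts in control and 17 to 30 in hypoxia, and the call was lost without control replicate 1 (0.82), control replicate 2 (1.17), hypoxia replicate 1 (1.04) or hypoxia replicate 3 (1.14). Of 6 purine synthesis genes, 0 rose and 1 fell (median -0.32), and it was Ppat, the first step of the pathway, by 1.12 (edgeR adjusted p = 3.19e-09). The count of genes that rose in that list was 0 in edgeR under each scaling. At an adjusted p below 0.05 and any fold, 4 of the 6 genes were lower, Ppat among them. At that threshold 1 gene, Atic, named after its values were seen, was higher, without reaching 1.5-fold.

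Of 8 genes of the amino acid response around ATF4, 7 rose and 0 fell (median 1.42). Atf4 itself rose from 200.5 ± 12.5 to 526 ± 43.5 CPM (mean ± SD, n = 3, 2.62-fold, edgeR adjusted p = 4.05e-13). Asns, asparagine synthetase, rose from 86.1 ± 5.69 to 213 ± 5.12 CPM (2.47-fold, edgeR adjusted p = 2.24e-13). The largest rise was that of Chac1, a glutathione-degrading enzyme, at 4.42-fold (edgeR adjusted p = 2.94e-15). The gene not called was Sesn2, at 1.21-fold.

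**Figure D4:**
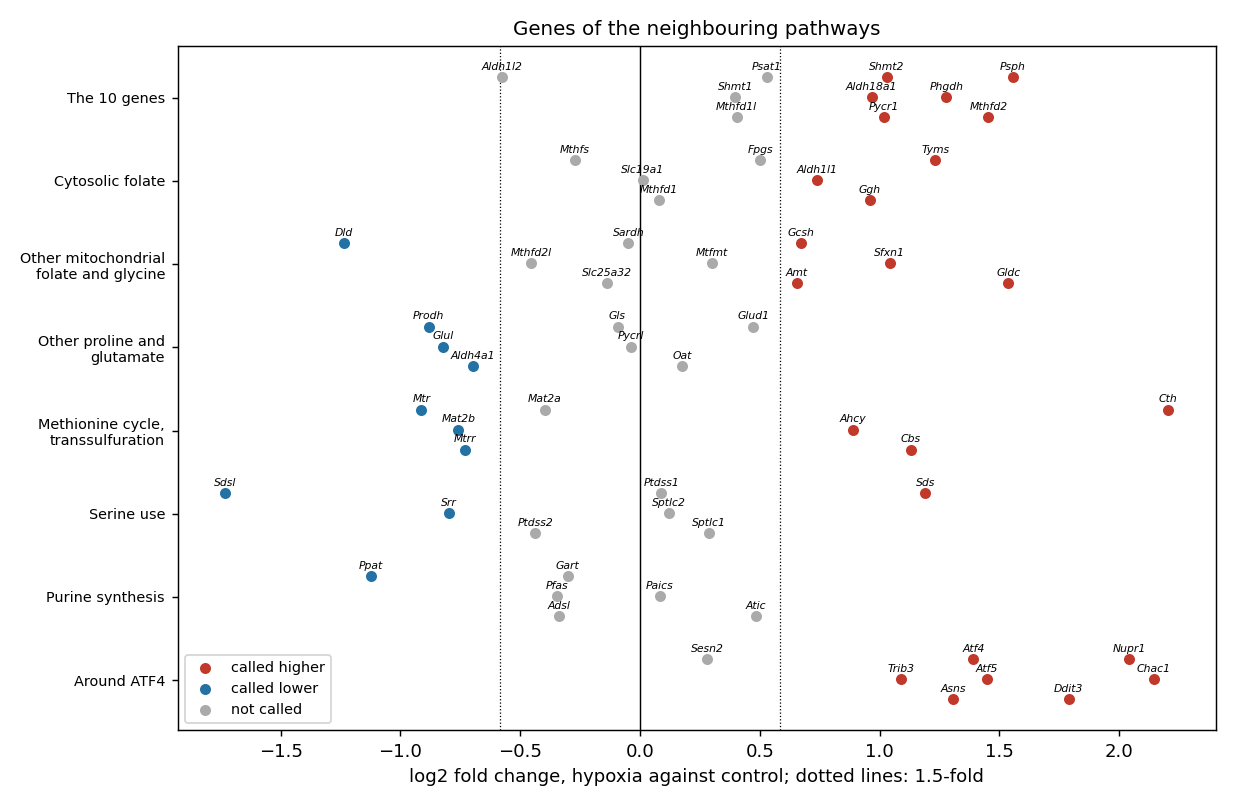
Each point is a gene, placed by its log2 fold change in hypoxia against control on the horizontal axis and by its list on the vertical axis (points are staggered for reading); red points were called higher, blue lower and grey not called, and dotted lines mark 1.5-fold. The 10 genes and the ATF4 list lie mostly right of the limit, while proline, methionine and serine-use genes lie on both sides of 0, from Sdsl at -1.73 to Cth at 2.21.

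Of the 51 tested genes of these lists, edgeR called 2 (3.92%) between hypoxia + rSRGN and hypoxia, both lower, close to the 3.13% called over all tested genes. Mtfmt, the mitochondrial enzyme that formylates the initiator methionyl-tRNA with a carbon from folate, measured 12.6, 12.7 and 10.5 CPM in hypoxia and 7.63, 8.05 and 7.03 in hypoxia + rSRGN. The groups did not overlap, and the log2 difference was -0.66 ± 0.15 SE (edgeR adjusted p = 0.00438), between -0.73 and -0.59 when any 1 library was left out. In control Mtfmt stood at 11.2, 7.99 and 9.86 CPM, overlapping both groups. Sds went from 30, 17 and 25 counts to 12, 9 and 7 (log2 -1.42 ± 0.49 SE, edgeR adjusted p = 0.0490), a call on low counts that few alternatives kept: the adjusted p was below 0.05 in 5 of the 16 that gave one. Among these 5, the setting with no fold limit repeats the adjusted p of the main fit. DESeq2 gave no adjusted p for it. The call was lost with RLE scaling, the filter of at least 1 count, the replicate block, without mitochondrial, rRNA and Hsp genes, and on leaving out any of 7 libraries (log2 -1.73 to -1.23). These were control replicates 2 and 3, hypoxia replicates 1 and 3 and all hypoxia + rSRGN replicates. Below the fold limit, Fpgs, which lengthens the glutamate tail of folates, was lower with rSRGN (log2 -0.49, edgeR adjusted p = 0.00215) and Chac1 higher (0.30, edgeR adjusted p = 0.0169), both named after their values were seen. At any fold, 16.6% of all tested genes had an adjusted p below 0.05 between these groups.

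The genes with the pattern most like each of the 10 over the 9 libraries were found by the root mean square (RMS) difference of centred log2 CPM. They were Igfbp4 for Phgdh (0.05), Cct5 for Psat1 (0.04), S100a6 for Psph (0.09), Slc39a8 for Shmt1 (0.10) and Cars, a tRNA synthetase gene, for Shmt2 (0.05). They were Clip3 for Mthfd2 (0.06), Abcc1 for Mthfd1l (0.05), Usp34 for Aldh1l2 (0.06), Rpl3 for Pycr1 (0.05) and Cdr2l for Aldh18a1 (0.05). A typical tested gene differed by an RMS of 0.44 to 0.78 from these genes. Among the 10 genes themselves, Shmt2 and Aldh18a1 were closest (0.08), followed by Psat1 and Mthfd1l (0.09), and Psph and Aldh1l2 were furthest apart (0.94).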

How the data were processed

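Poly(A) RNA-seq of 9 NMVM libraries was analysed, grouped from the sample labels. The deposited values are raw counts of fragments in whole numbers. Per the file headers, featureCounts 2.0.1 counted paired-end fragments over exons of GENCODE mouse release 25 (GRCm38) with no strand option, so fragments from genes that overlap on opposite strands, or from near-identical copies, are uncertain. The paper's methods describe strand-specific mouse libraries and do not name these cultures, which are known here only from their labels, so whether these libraries kept strand is not given in the sources used here. The submitters' processing notes name HISAT2 as aligner, and its version is not given in the sources used here. All 9 columns of counts were used and 0 were unused.

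For testing, edgeR 4.0.16 in R 4.3.3 was used: filterByExpr kept 16762 of 55401 genes, libraries were scaled by TMM, and the 3 groups were fitted together and compared by quasi-likelihood tests, with p-values adjusted after Benjamini and Hochberg over all genes tested. The step was tested on simulated data. Levels are TMM-scaled CPM, per kilobase of the exon length in the table where genes are compared. Ratios were compared by exact two-sided permutation tests, 18 in all. Alternatives were DESeq2 1.42.0, RLE and library-size scaling, 2 count filters, an unadjusted p, no fold limit, pairwise fits, a replicate block, leaving out each library, and leaving out mitochondrial, rRNA and Hsp genes. Pseudogene identity was computed with Biopython 1.88. Replicates differed by more than counting noise (chi-square per degree of freedom 3.81 to 14.6).

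The 10 genes and all lists were chosen with earlier results of these data known. Named from each other list were Atf4 and Asns, the genes called between the hypoxic groups, the called genes with the largest rise and fall under hypoxia, and the nearest gene in pattern; all other genes of these lists and of the marker lists were named after their values were seen. Some genes of these lists are not reported here, and the list counts leave them out.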

Additional observations from a re-analysis of the deposited data

How the results depend on the processing

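No called gene of the 10 lost its call in any alternative; the count called higher under hypoxia was 6, and 7 with library size alone and 9 with no fold limit. The count called lower under hypoxia went from 0 to 1, Aldh1l2, with DESeq2 (1 gene, log2 -0.60), RLE scaling (1, -0.60), a filter of at least 1 count (1, -0.63), no fold limit (1), pairwise fits (1, -0.59) and without mitochondrial, rRNA and Hsp genes (1, -0.59), and ranged from 0 to 1 when a library was left out. In hypoxia + rSRGN against control it was 1 with no fold limit, and the count called higher there went from 6 to 7 with Shmt1 under library size alone (0.62), the filter of at least 10 counts in every library (0.585) and pairwise fits (0.59). Against hypoxia, rSRGN differences near 0 changed sign. Mthfd1l became 0.0211 with DESeq2, 0.0209 with RLE scaling, 0.0045 and 0.0054 with filters of at least 1 count and of 10 counts in every library, 0.0079 in pairwise fits and 0.0019 without mitochondrial, rRNA and Hsp genes. With a library left out it ran from -0.0558 to 0.0524, Psph from -0.153 to 0.0425 and Aldh18a1 from -0.127 to 0.0198. The log2 ratios of Phgdh to Psat1 (-0.0195 to 0.113), Psph to Psat1 (-0.0479 to 0.168) and Mthfd2 to Mthfd1l (-0.153 to 0.0039) also crossed 0 in that comparison, as did Pycr1 to Aldh18a1 (-0.0332 to 0.114) in hypoxia against control. The cause of these changes was not tested.

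Libraries with the same replicate number did not vary together: correlations of their deviations ran from -0.04 to 0.02, and those of different-numbered libraries from -0.05 to 0.05. Whether libraries shared a culture or batch was not tested. With the number as a block, 6 of the 10 genes were called higher and 0 lower under hypoxia and 0 changed with rSRGN, and Shmt1 in hypoxia + rSRGN against control passed the fold limit (0.59). All calls over the genes tested went from 8644 to 8550, 525 to 495 and 8183 to 8096.

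For rSRGN against hypoxia the 525 calls over all genes became 899 at an unadjusted p, 2790 with no fold limit and 321 without hypoxia replicate 3. With 3 libraries a group, the exact permutation tests of ratios could not go below p = 0.1, and Shmt1 (165 to 328 counts a library) had the widest intervals of the 10 genes.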
